A study of Homo sapiens with 6 samples.

Results

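The genes described here carry, take up, export and store iron or set how much of it enters the blood. The 10 genes were chosen by name (TF, TFRC, TFR2, SLC40A1, SLC11A2, FTL, FTH1, CP, HAMP and HFE), with their levels, their differences with POSTN and their differences between replicate numbers already known from earlier results of these arrays. Those values are therefore given as descriptions. Where members past a threshold are counted or named, the count stands beside the share of all probe sets and is no test of these genes. All probe sets annotated to exactly 1 of the symbols were taken, which gave 41 of the 54613 probe sets and 9 of the 10 genes. The ferritin heavy chain gene FTH1 had no such probe set in the table used and was not analysed here.

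The cells were MHCC97H, a human line of hepatocellular carcinoma (HCC), which had been heated at 47 °C as a model of tumour cells that outlive an incomplete thermal ablation. The residual cells were cultured for 24 h with 100 ng/mL recombinant POSTN, a secreted matrix protein that binds integrins (3 samples), or without it (control, 3 samples). Each sample was read on 1 Affymetrix Human Genome U133 Plus 2.0 array, and the deposited values are log2 MAS 5.0 signals. All 6 samples come from the same cell line and had the same heat exposure, and no unheated cells were analysed here. Within each condition the labels number the samples 1, 2 and 3. Nothing says whether these are separate cultures, so SDs measure the spread between these samples. Standard errors are from limma, which draws the variance of each probe set towards that of others at a like signal. They can be larger or smaller than the samples of that probe set alone would give.

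In blood, iron travels bound to transferrin (TF), and ceruloplasmin (CP), a copper-containing ferroxidase, oxidizes it for loading onto transferrin. Cells take up the complex through the transferrin receptor (TFRC), move iron out of endosomes through SLC11A2 (DMT1), store it in ferritin (FTL and FTH1 chains), and release it through ferroportin (SLC40A1). The liver makes most circulating transferrin and ceruloplasmin and also hepcidin (HAMP), a peptide hormone that blocks ferroportin, with HFE and TFR2 acting upstream of hepcidin. When iron is scarce, iron regulatory proteins bind iron-responsive elements in the transcripts of FTL, FTH1, TFRC, SLC40A1 and SLC11A2, which changes their translation or stability.

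Sequences are shown for TF and SLC40A1, the members with a promoter window that were higher in the arrays numbered 1 (below). They are also shown for HAMP, which was lower there at an adjusted p over 0.05 in limma. For FTL, the stretch around the loop of its iron-responsive element is shown, up to the end of the window. They come from RefSeq (GRCh38.p14), where 7 of the 10 members had a window reaching from 250 bases before to 50 bases after a transcript start. The first 3 are the 250 bases before the start (TF, chr3:133746143-133746392, plus strand; SLC40A1, chr2:189580787-189581036, minus strand; HAMP, chr19:35282278-35282527, plus strand), and the last is a stretch of 30 bases in the transcribed part of FTL (chr19:48965329-48965358, plus strand). Capitals mark AGGTCAAAG, which holds the nuclear receptor core AGGTCA, in TF, the BMP-response core GGCGCC and the STAT-type motif TTCNNNGAA in HAMP, and the loop CAGTG of the iron-responsive element in FTL.
TF: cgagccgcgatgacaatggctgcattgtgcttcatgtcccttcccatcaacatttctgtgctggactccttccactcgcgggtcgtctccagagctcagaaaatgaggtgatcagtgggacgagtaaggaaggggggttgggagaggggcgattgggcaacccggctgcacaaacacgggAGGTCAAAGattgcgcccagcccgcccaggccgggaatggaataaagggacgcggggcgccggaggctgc
SLC40A1: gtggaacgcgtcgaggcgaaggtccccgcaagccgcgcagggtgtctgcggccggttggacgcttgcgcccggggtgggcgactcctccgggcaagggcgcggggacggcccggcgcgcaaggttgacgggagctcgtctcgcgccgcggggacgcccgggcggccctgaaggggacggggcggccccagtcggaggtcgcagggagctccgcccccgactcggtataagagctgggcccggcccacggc
HAMP: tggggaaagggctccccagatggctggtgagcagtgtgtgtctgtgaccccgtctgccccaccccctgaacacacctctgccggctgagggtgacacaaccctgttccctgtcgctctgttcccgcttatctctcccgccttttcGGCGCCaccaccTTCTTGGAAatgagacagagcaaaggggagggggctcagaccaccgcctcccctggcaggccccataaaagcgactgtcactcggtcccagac
FTL: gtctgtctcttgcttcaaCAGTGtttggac

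Motifs were searched on both strands of 34796 windows. AGGTCAAAG lay in 0.27% of them, among the members in TF, where it begins at position -70 from the start, and in 1 of the 4 windows of SLC11A2. AGGTCA alone, with which AGGTCAAAG overlaps, lay in 13.8%, GGCGCC in 19.2%, TTCNNNGAA in 7.67% and CAGTG in 52.6% of the windows. GGCGCC was also found in both TF windows (at -15, in lower case, in the one shown) and in the TFRC window. The antioxidant response core TGACNNNGC lay in 13.3% of the windows and in none of the members'. In the SLC40A1 window none of the motifs was matched. A match describes these letters only and was not set against binding data.

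Signals were set against a background level of 5.98 on the log2 scale, the 95th percentile of 107 probe sets of olfactory receptor genes. Of the 41 member probe sets, 31 had a mean above it, and 10 lay within the background range, among them all 3 of TFR2. Median log2 signals were 5.86 to 5.95 on the POSTN arrays and 5.80 to 5.87 on the control arrays, and 47.7% to 49.7% of the probe sets lay above background on each array. Of 8 hepatocyte and hepatoma markers, 6 were above background, with KRT8 and KRT18 at mean log2 signals of 13.96 and 15.02, ALB at 6.55, and AFP also above it, while APOA1 and SERPINA1 lay within the background range. Of 7 stellate and fibroblast markers, 3 were above it (COL1A1, DCN and LUM), of 3 endothelial markers 1 (PECAM1), of 3 measured leukocyte markers none, and of 2 measured erythroid markers 1 (HBB). Across the 6 arrays, those numbered 1 stood apart. At an adjusted p under 0.05 in limma, 3069 probe sets (5.62%) differed between them and the 4 others. With a prior variance that does not follow the signal level, the count was 0. This comparison was taken up because earlier results of these arrays had shown number 1 apart. All p-values given for it therefore describe that split and are no independent test of it.

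With POSTN, no probe set of the iron genes passed a threshold against control in limma. Over the 31 member probe sets above background, the difference between POSTN and control arrays ran from -0.47 to 0.52 on the log2 scale, with 18 higher, 13 lower and a median of 0.037, compared with a median of 0.00038 over all 25320 probe sets above background. The median standard error of these 31 differences was 0.28, against 0.18 over all probe sets above background. None of the 41 had an adjusted p under 0.05 in limma, where 0% of all probe sets passed (the methods' t-test with Benjamini-Hochberg adjustment also called 0), and 1649 of all probe sets but none of the 41 had an unadjusted p under 0.05. None met the study's thresholds, a fold change above 2 or below 0.5 with an unadjusted p below 0.05, which 2.56% of all probe sets met. On 2 of the 41 (4.88%), both of HFE, the POSTN and control arrays did not overlap, compared with 7.94% of all probe sets.

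**Figure D1:**
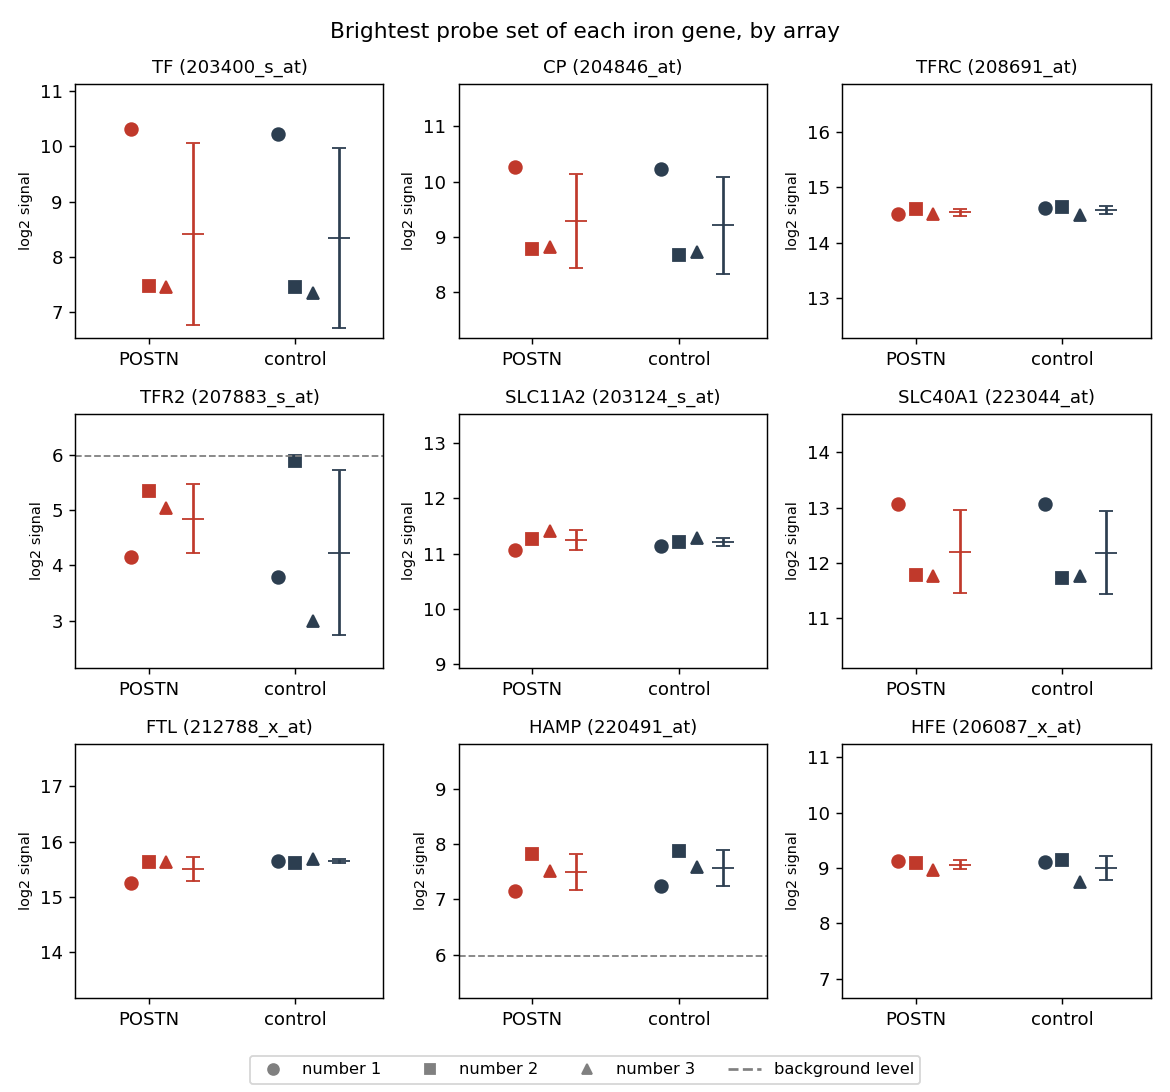
Log2 signal of the brightest probe set of each of the 9 genes on the 3 POSTN arrays (red) and the 3 control arrays (dark blue), with the replicate number as the symbol and mean ± SD beside the points. Every panel spans the same range of log2 units, and a dashed line marks background, 5.98. TF, CP and SLC40A1 have their highest points in the arrays numbered 1 of both conditions. For these genes, POSTN and control arrays of the same number lie close together.

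TF, the iron carrier of plasma, had log2 signals of 10.32, 7.47 and 7.45 on POSTN arrays 1, 2 and 3, against 10.22, 7.46 and 7.35 on control arrays 1, 2 and 3 (probe set 203400_s_at). The groups overlapped almost wholly, since each held 1 high array, that numbered 1, and a pair of low ones. The mean was 8.41 ± 1.65 with POSTN and 8.34 ± 1.63 in control cells (SD, n = 3 each), a log2 fold change of 0.071 with a standard error of 0.86, or 0.14 when replicate numbers were fitted as blocks. Within numbers 1, 2 and 3, POSTN minus control was 0.099, 0.016 and 0.097. The unblocked value turned on which arrays numbered 1 it held, at -0.88 when POSTN replicate 1 was left out, 1.01 when control replicate 1 was, and 0.057 when both were. The other TF probe set above background, 214063_s_at, differed by -0.17 (standard error 0.68), and the 2 dim ones, 214064_at and 220109_at, had 0.55 and -0.59.

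CP, the ferroxidase, had log2 signals of 10.27, 8.79 and 8.82 on POSTN arrays 1, 2 and 3, against 10.23, 8.68 and 8.73 on control arrays 1, 2 and 3 (204846_at). Again the array numbered 1 was the high one in each condition. The mean was 9.29 ± 0.85 with POSTN and 9.21 ± 0.88 in control cells (SD, n = 3 each), a log2 fold change of 0.079 (standard error 0.46, and 0.10 in the blocked fit). It was -0.41 when POSTN replicate 1 was left out, 0.59 when control replicate 1 was, and 0.097 when both were. Its other 3 probe sets had log2 fold changes of -0.015 (227253_at), 0.28 (1558034_s_at) and 0.042 (228143_at).

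TFRC, the receptor for iron-loaded transferrin, was far above background on 2 of its 5 probe sets. On 208691_at the log2 signals were 14.52, 14.61 and 14.51 on POSTN arrays 1, 2 and 3, against 14.62, 14.64 and 14.50 on control arrays 1, 2 and 3. The groups overlapped, and the log2 fold change was -0.045 (standard error 0.079), or 0.0088 after quantile normalization. On 207332_s_at it was -0.092 (standard error 0.083), with the lowest of the 6 values, 14.03, on POSTN array 1. A dimmer probe set, 237215_s_at, differed by 0.032, and the 2 within the background range by -0.24 and -0.16.

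The second transferrin receptor gene, TFR2, which the liver uses in iron sensing, was not separable from background. Mean log2 signals of its 3 probe sets were 2.76 to 4.54, and the single arrays ran from 0.85 to 5.89. Its log2 fold changes of 0.61, 0.85 and -1.31 had standard errors of 0.87, 1.04 and 1.18.

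SLC11A2, the divalent metal importer, was above background on 4 of 5 probe sets. On 203124_s_at the log2 signals were 11.06, 11.27 and 11.40 on POSTN arrays 1, 2 and 3, against 11.14, 11.21 and 11.27 on control arrays 1, 2 and 3. The groups overlapped, their log2 means were 0.037 apart (standard error 0.11), and this became -0.015 after centring each array on its median. The other 3 had 0.080, -0.19 and -0.060. The fifth, 237106_at, differed by 1.66 (standard error 1.05) within the background range, where control array 1 was at 1.31 and the other 5 arrays at 4.91 to 5.94.

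SLC40A1, ferroportin, the iron exporter, had log2 signals of 13.07, 11.78 and 11.76 on POSTN arrays 1, 2 and 3, against 13.06, 11.73 and 11.77 on control arrays 1, 2 and 3 (223044_at). As for TF and CP, 1 array of each condition was high and the conditions matched number by number. The log2 fold change was 0.019 (standard error 0.40, and 0.055 in the blocked fit), or -0.033 after median centring, and POSTN minus control was 0.012, 0.058 and -0.014 within numbers 1, 2 and 3. Leaving out POSTN replicate 1 gave -0.41, leaving out control replicate 1 gave 0.46, and leaving out both gave 0.022. The dimmer probe set 233123_at differed by 0.039 (standard error 0.28).

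FTL is the ferritin light chain, and the loop of its iron-responsive element is printed above. It had log2 signals of 15.25, 15.64 and 15.64 on POSTN arrays 1, 2 and 3, against 15.65, 15.62 and 15.69 on control arrays 1, 2 and 3 (212788_x_at). Of the 6 arrays, 5 lay within 15.62 to 15.69, and POSTN array 1 lay below them. The log2 fold change was -0.15 (standard error 0.11), and it shrank to -0.019 when POSTN replicate 1 was left out and to -0.022 when both arrays numbered 1 were. The other probe set, 213187_x_at, had -0.15 (standard error 0.10), also with its lowest value, 15.07, on POSTN array 1. Both probe sets end in _x_at, which marks probes that may hybridise with other transcripts.

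HAMP, hepcidin, had log2 signals of 7.16, 7.82 and 7.51 on POSTN arrays 1, 2 and 3, against 7.24, 7.88 and 7.59 on control arrays 1, 2 and 3 (220491_at). The values followed the replicate number in both conditions, and POSTN minus control was -0.081, -0.054 and -0.079 within numbers 1, 2 and 3. The log2 fold change was -0.071 (standard error 0.26, and 0.19 in the blocked fit). It was 0.097 when POSTN replicate 1 was left out, -0.23 when control replicate 1 was, and -0.066 when both were. Its 1 probe set had a mean log2 signal of 7.53.

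HFE, an MHC class I-like protein that acts in hepcidin control, was read by 15 probe sets, of which 13 lay above background. On the brightest, 206087_x_at, the log2 signals were 9.12, 9.10 and 8.96 on POSTN arrays 1, 2 and 3, against 9.11, 9.15 and 8.75 on control arrays 1, 2 and 3, which overlap. The log2 fold change there was 0.056 (standard error 0.15). Across the 13, 9 were higher and 4 lower, from -0.47 on 211329_x_at (standard error 0.32) to 0.52 on 211326_x_at (standard error 0.47). The pair without overlap had log2 signals of 7.04, 6.92 and 7.23 with POSTN against 6.67, 6.53 and 6.73 in control cells (211866_x_at), and of 6.94, 7.22 and 6.88 with POSTN against 6.85, 6.37 and 6.45 in control cells (210864_x_at). Their log2 fold changes were 0.42 (standard error 0.27) and 0.46 (standard error 0.29). Probe sets of 1 gene share their transcript and arrays and are not replicates, and 13 of the 15 end in _x_at or _s_at.

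**Figure D2:**
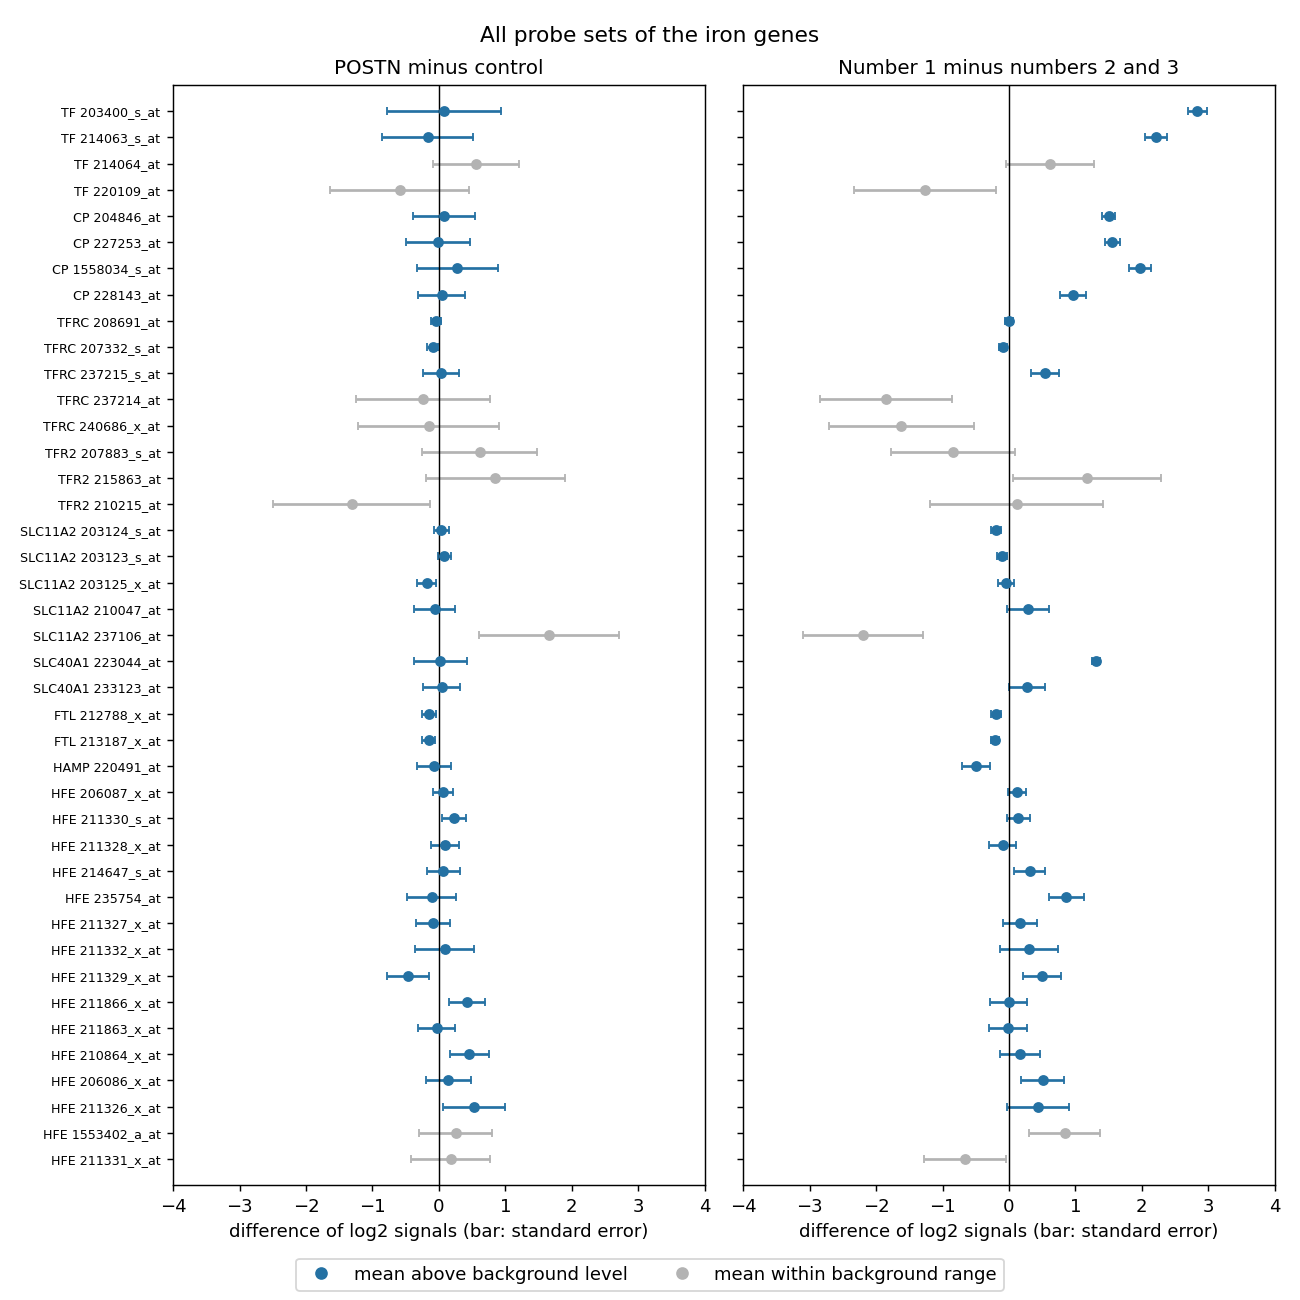
Difference of mean log2 signals for each of the 41 member probe sets, between POSTN and control arrays (left) and between the arrays numbered 1 and those numbered 2 and 3 (right); bars are standard errors from limma, blue points lie above the background level and grey points within the background range. On the left the blue points run from -0.47 to 0.52, and on the right TF, CP and SLC40A1 reach 0.97 to 2.83 on 7 probe sets with short bars.

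The larger differences among the iron genes ran between replicate numbers. The arrays numbered 1 (1 POSTN and 1 control array) were compared with the 4 numbered 2 and 3, with the condition in the fit. TF, CP and SLC40A1 were higher in the arrays numbered 1, and this held in POSTN and in control cells alike, while the brightest probe sets of TFRC, SLC11A2, FTL and HFE differed by 0.20 log2 units or less. Of the 41 member probe sets, 7 (17.1%) had an adjusted p under 0.05, all of them higher in the arrays numbered 1, where 5.62% of all probe sets were called and 2.91% were called higher. The 7 are 2 probe sets of TF, all 4 of CP and 1 of SLC40A1. With a prior variance that does not follow the signal level, 0 of the 41 and 0 of all probe sets were called in limma, where 10 of the 41 and 6261 of all had an unadjusted p under 0.05. The values in number 1 and in numbers 2 and 3 did not overlap on 17 of the 41 (41.5%), compared with 26.3% of all probe sets. Among probe sets above background they did not overlap on 15 of the 31, compared with 10091 of all 25320. These counts describe genes taken up with the contrast already known and carry no further reading.

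TF had log2 signals of 10.32 and 10.22 in the POSTN and control arrays numbered 1 and of 7.35 to 7.47 in the 4 others (203400_s_at), a difference of 2.83 (standard error 0.14), or 7.13-fold. The difference was 2.86 among the POSTN arrays and 2.81 among the control arrays, and numbers 2 and 3 differed by 0.061. Probe set 214063_s_at gave 2.21 (standard error 0.17), and the 2 probe sets gave profiles over the 6 arrays with a Pearson r of 0.987. The dim probe sets 214064_at and 220109_at gave 0.62 and -1.26 with standard errors of 0.67 and 1.07.

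CP was higher in number 1 on each of its 4 probe sets. On 204846_at the mean log2 signal was 10.25 in number 1 and 8.75 in numbers 2 and 3, a 2.82-fold difference (standard error 0.10 on the log2 scale). In log2 units it was 1.47 among the POSTN arrays and 1.53 among the control arrays. The other 3 probe sets gave 1.56 (227253_at), 1.97 (1558034_s_at) and 0.97 (228143_at), and the 4 correlated with each other over the 6 arrays at r from 0.898 to 0.993.

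SLC40A1 had a mean log2 signal of 13.06 in number 1 and 11.76 in numbers 2 and 3 on 223044_at, a difference of 1.31 (standard error 0.058), or 2.47-fold. The difference was 1.30 among the POSTN arrays and 1.31 among the control arrays. On 233123_at, closer to background at a mean of 7.02, it was 0.28 (standard error 0.27), and the groups overlapped. The 3 genes lie on chromosome 3 (TF, 133661998 to 133796641, and CP, 149162414 to 149221829) and chromosome 2 (SLC40A1, 189560590 to 189580786) of GRCh38.p14. Over the 6 arrays their brightest probe sets correlated with each other at r from 0.998 to 0.999, which describes 6 points of which 2 stand apart.

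HAMP was lower, with 7.16 and 7.24 in the arrays numbered 1 and 7.51 to 7.88 in the 4 others, without overlap. The difference of -0.50 (standard error 0.21) was not called (adjusted p = 0.25 in limma). Numbers 2 and 3 differed by 0.30 on the same probe set. FTL differed by -0.20 (standard error 0.074) on 212788_x_at and by -0.21 (standard error 0.057) on 213187_x_at. For 212788_x_at this difference lay in POSTN array 1, since it was -0.38 among the POSTN arrays and -0.011 among the control arrays, and it was -0.032 after quantile normalization.

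TFRC differed by 0.0047 (standard error 0.059) on 208691_at and by -0.087 on 207332_s_at, the first of which was 0.10 after quantile normalization. Its dimmer probe set 237215_s_at had 7.94 and 8.03 in the arrays numbered 1 and 7.17 to 7.63 in the 4 others, a difference of 0.54 (standard error 0.21). SLC11A2 differed by -0.19 (standard error 0.076) on 203124_s_at and by -0.10 on 203123_s_at, both without overlap. A dimmer one, 210047_at, went the other way without overlap, with 6.79 and 6.72 in the POSTN and control arrays numbered 1 and 6.37 to 6.57 in the 4 others, a difference of 0.29 (standard error 0.31), and 203125_x_at overlapped at -0.045. For HFE the brightest probe set gave 0.13 (standard error 0.13), and 10 of the 13 probe sets above background were higher and 3 lower in number 1. The largest of these was 0.86 (standard error 0.26) on 235754_at, with 7.66 and 8.11 in the arrays numbered 1 and 6.69 to 7.30 in the 4 others.

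**Figure D3:**
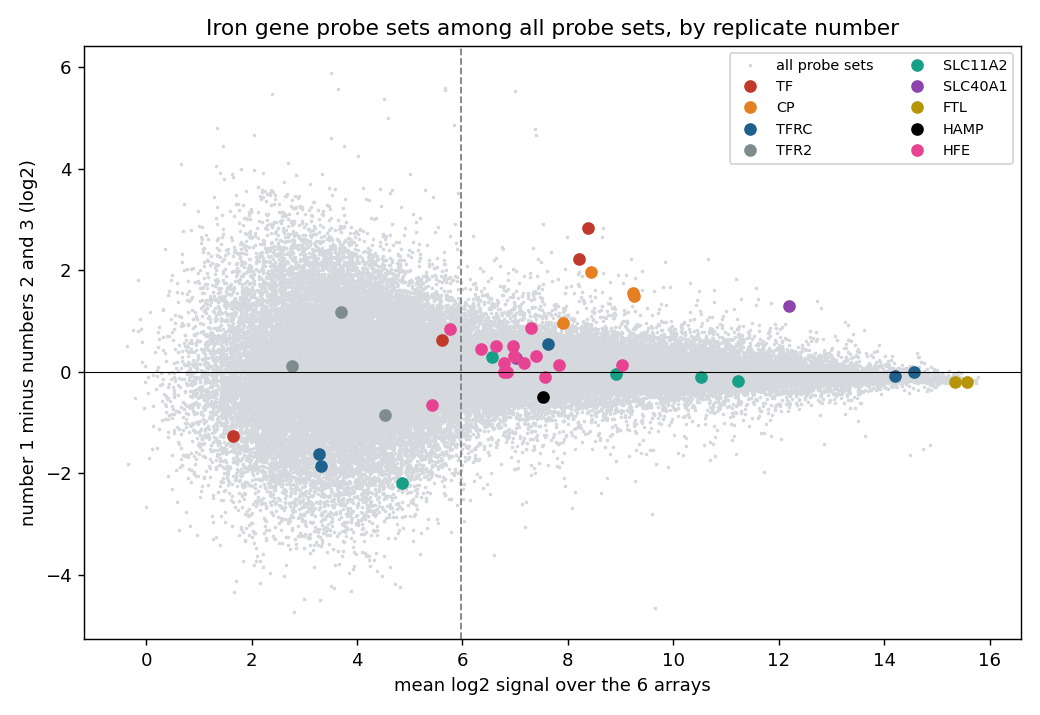
Difference between the arrays numbered 1 and those numbered 2 and 3 (log2) against the mean log2 signal over the 6 arrays for all 54613 probe sets (grey) and for the 41 member probe sets (coloured by gene); background, 5.98, is the dashed line. To the right of the line, 2 probe sets of TF, the 4 of CP and 223044_at of SLC40A1 lie between 0.97 and 2.83, and the 2 bright ones of TFRC and those of FTL lie between -0.21 and 0.0047.

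Other measures moved with the replicate number too. Of the 8 hepatocyte and hepatoma markers, ALB (adjusted p = 0.0073 in limma) and SERPINA1 (adjusted p = 0.0056) were higher in number 1, with mean log2 signals of 7.79 and 7.81 there and of 5.94 and 4.89 in numbers 2 and 3. The last pair lies under the background level, so the sizes of these differences are not measured. The other 6 had adjusted p-values over 0.05, with APOA1 (within the background range) and AFP at differences of 1.80 and 0.12 and APOB, TTR, KRT18 and KRT8 at -0.65, -0.44, -0.16 and -0.035. DCN was lower in number 1 (log2 difference -1.002, adjusted p = 0.00037 in limma), and PECAM1 was higher by 0.51 (adjusted p = 0.018). All other stellate, fibroblast and endothelial markers had adjusted p-values over 0.05. Above background, LUM and COL1A1 differed by 0.027 and -0.30. Within the background range, ACTA2, PDGFRB, COL1A2 and COL3A1 differed by 0.66, 1.83, -0.034 and -2.43, and VWF and CDH5 by -1.004 and 0.65. Marker signals were summed on the linear scale, so the brightest marker of each kind weighs most. The brightest were KRT18 and KRT8 (mean log2 signals 15.02 and 13.96), LUM and DCN (11.17 and 9.26), and PECAM1 (10.10). The summed signal of the 8 hepatocyte and hepatoma markers, on the log2 scale, was 15.48 to 15.60 in number 1 and 15.61 to 15.74 in numbers 2 and 3. That of the 7 stellate and fibroblast markers was 11.50 to 11.72 in number 1 and 11.75 to 11.89 in numbers 2 and 3. That of the 3 endothelial markers was 10.35 to 10.59 in number 1 and 9.82 to 10.20 in numbers 2 and 3. The part of these in the differences of TF, CP and SLC40A1 was not tested, and in bulk RNA fewer cells of a kind and less RNA per cell cannot be told apart.

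The 3 members whose brightest probe sets above background varied most over the arrays were TF (SD 1.46), CP (SD 0.78) and SLC40A1 (SD 0.67). Among 883 genes above background with an SD of at least 0.5, the profile nearest to TF was that of SLC40A1 (r = 0.999), followed by CP (0.998) and CBX2, a Polycomb protein (0.997). The nearest to CP were SLC40A1 (0.999), HGD, an enzyme of tyrosine breakdown (0.998), and TF (0.998). The nearest to SLC40A1 were TF (0.999), ENTPD5, an endoplasmic reticulum nucleotidase (0.999), and TRNT1, which adds the CCA end to tRNAs (0.999). CBX2, HGD, ENTPD5 and TRNT1 were higher in number 1 by 1.11, 1.01, 1.68 and 1.09. These are likenesses over 6 arrays, and any gene that is high in both arrays numbered 1 scores close to 1.

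A wider list of 50 symbols of iron and heme handling (3 genes stand on it under an old and a new symbol) was read through the brightest probe set per gene, which gave 42 genes, 35 of them above background. With POSTN none of the 42 had an adjusted or an unadjusted p under 0.05 in limma. Over the brightest probe sets of all 19775 genes, 0 had such an adjusted p and 491 such an unadjusted p. The median difference of the 42 was -0.034, with 19 higher and 23 lower, compared with a median of 0.00015 over the brightest probe sets of all genes. Among those above background the difference ran from -0.19 (NEO1, a hemojuvelin receptor) to 0.36 (FURIN, a protease that cleaves hemojuvelin).

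ACO1, the iron regulatory protein that doubles as cytosolic aconitase, differed by -0.051 (standard error 0.097), FBXL5, an iron sensor that degrades iron regulatory proteins, by 0.088 (standard error 0.11), and NCOA4, the receptor for ferritin autophagy, by 0.018 (standard error 0.082). The endosomal ferrireductase STEAP3 had log2 signals of 10.50, 10.43 and 10.48 on POSTN arrays 1, 2 and 3, against 10.90, 10.37 and 10.68 on control arrays 1, 2 and 3, a difference of -0.18 (standard error 0.13). IREB2, also on the list, was not analysed here.

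By replicate number, 5 of the 42 genes (11.9%) had an adjusted p under 0.05 in limma, compared with 8.95% of the brightest probe sets of all genes. Of these, 4 were higher in number 1 (4.64% of all genes) and 1 was lower (4.31% of all genes). HMOX1, which breaks down heme and releases its iron, had log2 signals of 11.43 and 11.60 in the POSTN and control arrays numbered 1 and of 10.72 to 10.75 in the 4 others, a difference of 0.78 (standard error 0.074, adjusted p = 0.00012). The heme exporter FLVCR1 was higher by 0.51 (standard error 0.068, adjusted p = 0.0013). SMAD6 and SMAD4, an inhibitor and a mediator of the BMP signals that drive hepcidin, were higher by 0.77 (standard error 0.14, adjusted p = 0.0089) and 0.40 (standard error 0.081, adjusted p = 0.014).

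LCN2, a secreted protein that binds iron-carrying siderophores, had 9.49 and 9.22 in the POSTN and control arrays numbered 1 and 9.95 to 10.26 in the 4 others, a difference of -0.75 (standard error 0.096, adjusted p = 0.00091). Without the variance trend 0 of the 42 passed, and 7 had an unadjusted p under 0.05 in limma. In that fit 6261 of all 54613 probe sets had such an unadjusted p. It was not counted over the brightest probe sets of all genes, so the 7 have no matching share and are not read further. ACO1, NCOA4, FBXL5 and STEAP3 differed by 0.00058, -0.061, -0.16 and 0.21 and did not pass. Without control replicate 1 only HMOX1, FLVCR1 and LCN2 of the 42 passed, without POSTN replicate 1 only HMOX1 and LCN2, and SMAD4 was also lost without POSTN replicate 3.

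**Figure D4:**
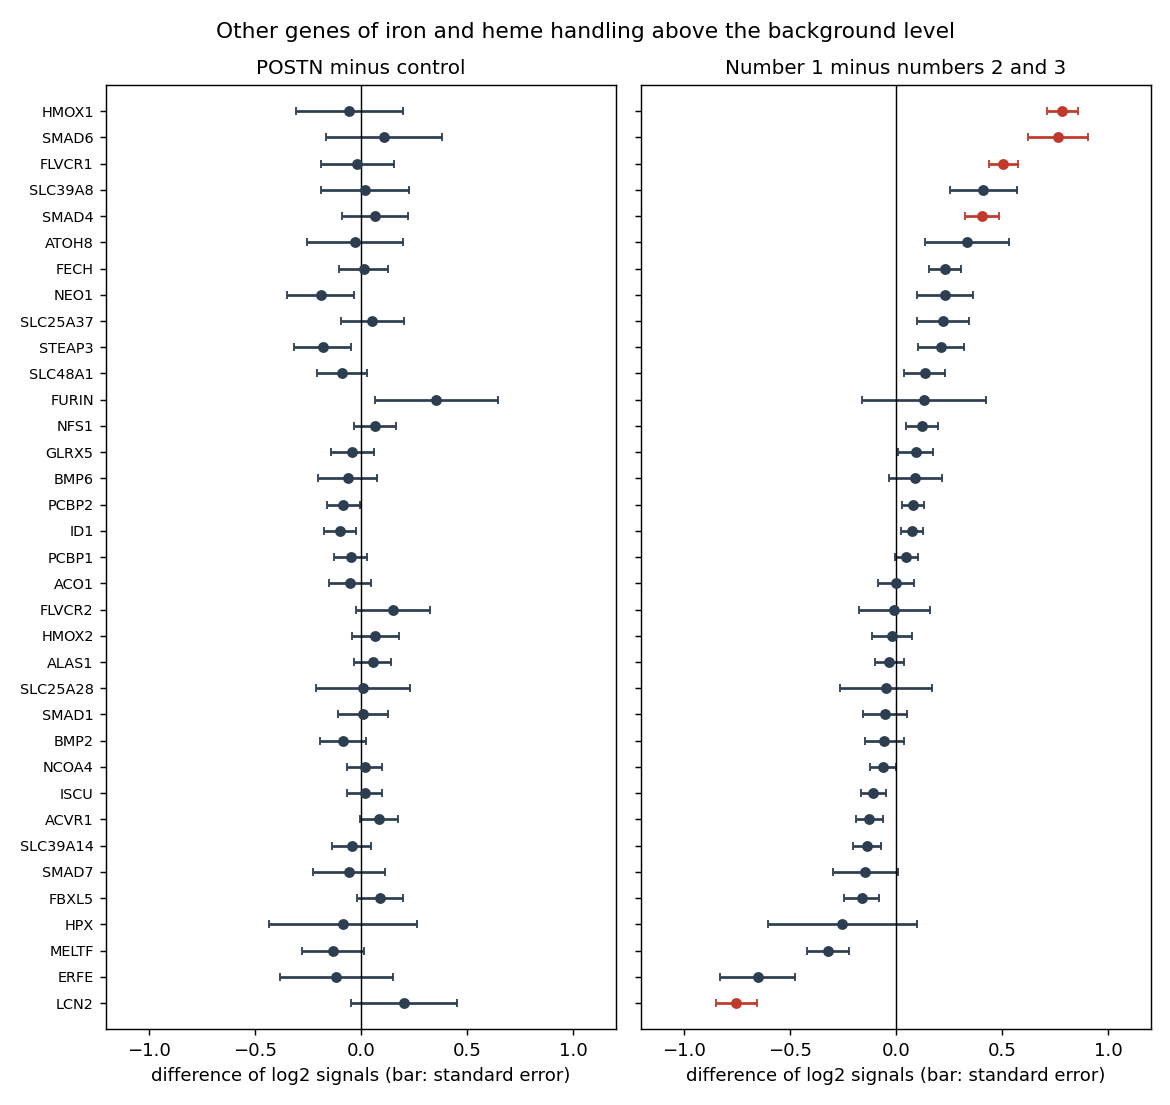
Difference of mean log2 signals for the 35 genes of the wider list above the background level, between POSTN and control arrays (left) and between the arrays numbered 1 and those numbered 2 and 3 (right), ordered by the right panel; bars are standard errors from limma and red points have an adjusted p under 0.05. On the left all points lie between -0.19 and 0.36, and on the right HMOX1, SMAD6, FLVCR1 and SMAD4 are the red points above 0 and LCN2 the one below.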

How the data were processed

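Signals were computed by the authors with MAS 5.0 and the affy package, whose version is not given in the sources used here. Values were deposited as log2 signals, and the linear signals average 500 on every array once the highest and lowest 2% are left out. MAS 5.0 subtracts mismatch signal, so dim probe sets vary widely. Of 54675 probe sets, 62 controls were left out, and 41091 had 1 symbol, 1801 several and 11721 none in the platform annotation. No arrays held equal values.

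Values were fitted as deposited in R 4.3.3 with limma 3.58.1 (lmFit, eBayes with a trend), with Benjamini-Hochberg adjustment over all 54613 probe sets. Fits were tested on simulated data. The members and gene lists were chosen with earlier results of these data known. Named are all members, 5 other iron genes whatever their values, the wider list's genes past the threshold, and the 3 genes most like each of the 3 most variable members; NEO1 and FURIN, which end that list's range, were chosen after their values were seen.

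Deviations of same-numbered POSTN and control arrays correlated at 0.529, 0.235 and 0.239 above background (0.0882, 0.034 and 0.0252 over all probe sets). POSTN 3 with control 2 and POSTN 2 with control 3 gave 0.201 and 0.15, so the check sets number 1 apart but hardly number 2 from number 3. The labels do not say that a number marks a shared culture. The POSTN fit had no block, and a fit with the number as a block was an alternative. Standard errors are those of the fit without it unless the text says otherwise.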

Additional observations from a re-analysis of the deposited data

How the results depend on the processing

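With the replicate number as a block, 1463 probe sets met the study's thresholds between POSTN and control, compared with 1398 without it, and the block changed no call on a member or a listed gene. The count was 14 with log2(value + 50) and 49 above background only. Leaving out 1 array at a time gave 0 to 1 member probe sets at those thresholds: 237106_at of SLC11A2 without control replicate 2 and 214064_at of TF without POSTN replicate 2, both dim. Between number 1 and numbers 2 and 3, the prior variance without a trend gave 0 calls over all probe sets, the members and the wider list, where 6261, 10 and 7 had an unadjusted p under 0.05; the cause was not tested. When probe sets with the endings _x_at and _s_at (25 of the 41) were dropped, the counts were 1750, 4 and 3. Leaving out 1 array at a time gave 657 to 3073, 6 to 8 and 2 to 6 calls, with 718 without control replicate 1, 657 without POSTN replicate 1 and 1869 without POSTN replicate 3. Above background only, 4167 of 25320 probe sets, 9 of 31 member probe sets and 6 of 35 listed genes were called. FTL and HFE were then among the members called, and FTL was also called without control replicate 2. The differences of TF, CP and SLC40A1 on their brightest probe sets stayed within 2.53 to 2.86, 1.40 to 1.53 and 1.29 to 1.35 over the alternatives run, which for TF do not include dropping _x_at and _s_at probe sets, since both of its called ones end so. Of 129 other values of the POSTN differences, 112 had the sign of the value given; leaving out 1 array moved those of TF, CP and SLC40A1 to between -0.88 and 1.01, -0.41 and 0.59, and -0.41 and 0.46. Of 120 other values by number, 117 had the same sign and 110 lay within 1 SD. MAS 5.0 signals without detection calls leave dim probe sets such as those of TFR2 without a usable level.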
